A study of Mus musculus with 2 samples.

Results

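The voltage-gated sodium channel subunit genes described here are 8 mouse genes, Scn1a, Scn3a, Scn4a, Scn7a and Scn10a of the pore-forming alpha class and Scn2b, Scn3b and Scn4b of the beta class. They were chosen by an exact match of the gene symbol in the transcript tables and joined to the gene tables by Ensembl identifier. All 8 were found among the 55536 annotated genes. Other subunit genes of the family were not analysed here.

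The material was whole heart of aged male B6CASTF1/J mice, 18 to 20 months old. These are F1 hybrids, in which each animal carries 1 genome from the inbred strain C57BL/6J and another from CAST/EiJ. Total RNA, 300 ng per library with synthetic spike-in RNAs, was depleted of ribosomal RNA and sequenced as strand-specific libraries. The 2 libraries, biological replicates 1 and 2, formed 1 group with no treatment and no second condition. They carried different sample identifiers and the same donor identifier, so any p-value below measures only the difference between these libraries, which may be technical. No heart chamber was named, and reads from the CAST/EiJ allele were assigned to the reference annotation with no separate allele values used here.

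Voltage-gated sodium channels open when the membrane depolarises and carry the inward current that starts the action potential in heart muscle, skeletal muscle and neurons. The alpha subunit forms the pore, the voltage sensors and the inactivation gate, and it conducts without help. Beta subunits are proteins with a single membrane span and an immunoglobulin-like outer domain that adjust gating and surface number and act in cell adhesion. Scn2b and Scn4b encode the beta subunits that bind the alpha subunit through a disulfide bond, while the Scn3b product binds without one. In heart muscle the family sets the speed of conduction, and beta subunit variants are known from inherited arrhythmia.

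Library totals were 39053829 expected counts in replicate 1 and 37447839 in replicate 2. Expected counts are the reads that the deposited quantification assigned to a gene, and TPM is a length-scaled abundance with the same total in every library, so it allows levels of different genes to be compared. The deposited data held a gene table with its transcript table, called the first table here, and a second transcript table, summed per gene where genes are compared. TPM was at least 1 in both libraries for 10882 of 22015 protein-coding genes outside the mitochondrial genome (49.4%). All 10 ventricular muscle markers passed that level, with a median mean TPM of 4017. Across all genes, log2(TPM + 1) correlated between the libraries with r = 0.994, a value over genes, which are not replicates.

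The 8 genes fell into 3 tiers of TPM. Scn4b, Scn4a and Scn7a stood above 1 TPM in both libraries, Scn2b, Scn3a, Scn10a and Scn3b lay between 0.27 and 0.62 TPM, and Scn1a was at the limit of detection. Mean TPM ran from 16.3 ± 6.02 (SD, n = 2) for Scn4b through 10.1 ± 0.771 for Scn4a and 3.49 ± 0.148 for Scn7a to 0.565 ± 0.0778 for Scn2b. Below it were Scn3a at 0.395 ± 0.0495, Scn10a at 0.305 ± 0.0495, Scn3b at 0.305 ± 0.0212 and Scn1a at 0.01 in each library. Bulk RNA gives a level per tissue, so fewer cells of a type and less RNA per cell cannot be told apart.

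**Figure D1:**
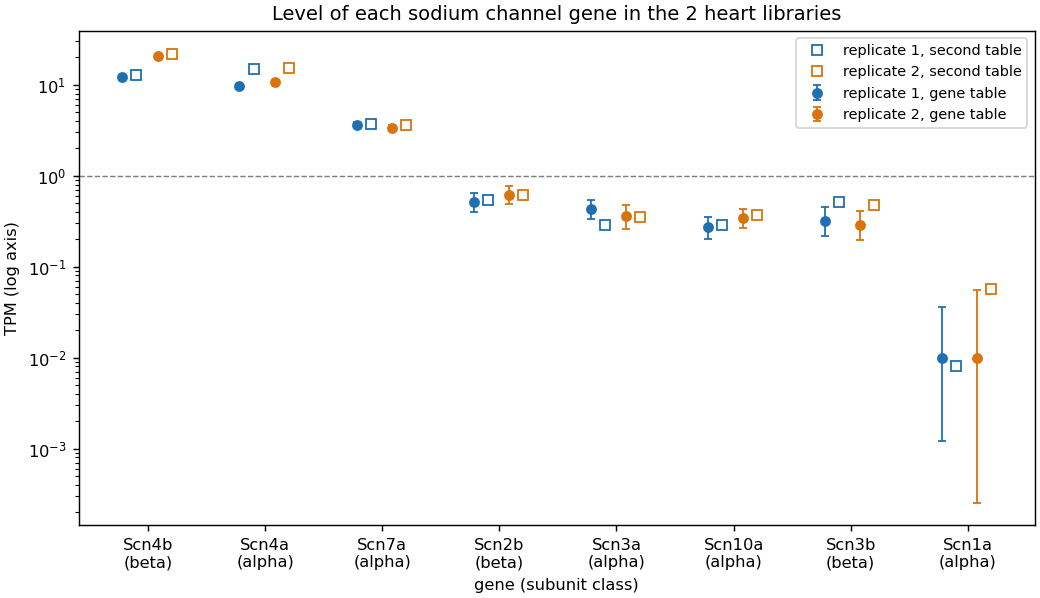
TPM (log axis) of the 8 genes, ordered by mean, in replicate 1 (blue) and replicate 2 (orange). Filled circles are the gene table with 95% exact Poisson intervals of the gene's expected count, scaled to TPM, and open squares are the second transcript table summed per gene. The intervals take no account of how counts split over transcripts of unlike length. The dashed line marks 1 TPM, which Scn4b, Scn4a and Scn7a exceed in every value shown.

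Of the 7 neighbouring pairs in that order, 4 had libraries that did not overlap in either table: Scn4a above Scn7a, Scn7a above Scn2b, Scn2b above Scn3a and Scn3b above Scn1a. Scn4b and Scn4a did not overlap in the gene table but did in the second table. Scn3a and Scn10a were apart in the gene table only. There the TPM of Scn3a included 0.16 and 0.20 from the short transcript Scn3a-203, which had 1.35 and 1.66 counts. Scn10a and Scn3b overlapped in the gene table, while in the second table both libraries of Scn3b lay above those of Scn10a. The 95% counting intervals of Scn2b, Scn3a and Scn10a also ran into those of the next gene down, so the order within the low tier was not resolved at this depth.

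Among the 5 alpha genes analysed here, Scn4a was the most abundant. It lies at chr11:106318592-106353288 on the minus strand (mm10, GENCODE M21; ENSMUSG00000001027.7) and encodes the channel that starts the action potential of adult skeletal muscle fibres. It had 1136 expected counts and 9.59 TPM in replicate 1, and 1270 counts and 10.68 TPM in replicate 2. It held 69.0% of the TPM summed over the 5 alpha genes in replicate 1 and 72.3% in replicate 2. With protein-coding transcripts only, these shares were 55.9% and 60.0%. In the second table its TPM was 14.8 and 15.4, higher than in the gene table in each library.

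The Scn4a total joined very different transcripts. Scn4a-201, with 24 exons, 6598 bases and a coding length of 5523 bases, took 1092 and 1222 expected counts, or 5.45 and 6.13 TPM. Scn4a-202 is a 443-base transcript of 2 exons with no annotated reading frame, which took 44 and 48 counts, or 4.15 and 4.55 TPM. It shares no exon with Scn4a-201 and ends 65 bases before the first base of Scn4a-201. Scn4a-202 therefore supplied 43.2% and 42.6% of the gene's TPM from 3.87% and 3.78% of its counts.

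The short transcript covers most of the stretch just before the start of Scn4a-201. The sequence below is the 250 bases before the RefSeq start of Scn4a (chr11:106349391-106349640, minus strand, RefSeq on GRCm38.p6), shown because Scn4a-202, to which those reads were assigned, covers most of it. Capitals mark the 186 bases that lie in the second exon of Scn4a-202.
Scn4a start region: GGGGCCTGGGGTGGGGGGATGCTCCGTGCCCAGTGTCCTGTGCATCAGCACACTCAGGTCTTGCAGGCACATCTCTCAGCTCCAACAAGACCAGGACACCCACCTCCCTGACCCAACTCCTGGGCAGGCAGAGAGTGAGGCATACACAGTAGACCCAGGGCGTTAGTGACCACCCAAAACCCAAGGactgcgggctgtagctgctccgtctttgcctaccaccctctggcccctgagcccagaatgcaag

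**Figure D2:**
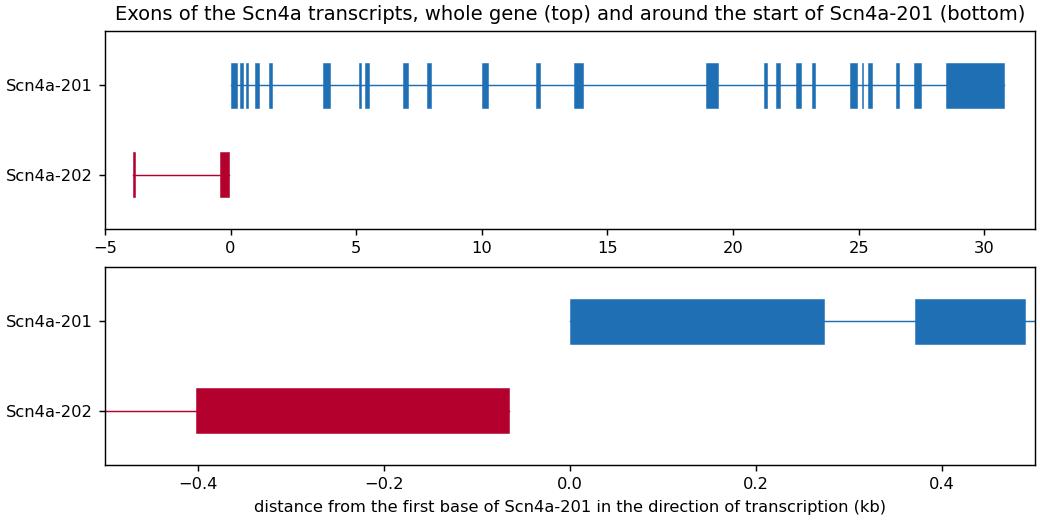
Exons (boxes) and introns (lines) of Scn4a-201 (blue) and Scn4a-202 (red) by distance in kb from the first base of Scn4a-201, in the direction of transcription; negative values lie before it. The lower panel enlarges the start region and shows the 65 bases between the transcripts, which overlap nowhere.

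Per kilobase of effective length, the part of a transcript from which a read can start, Scn4a-202 had 128 and 139.5 expected counts and Scn4a-201 had 168 and 188. The TPM of the short transcript was 0.761 and 0.742 times that of the long one in the first table. In the second table the ratio was 1.71 and 1.46, so the short transcript led there. That table gave Scn4a-202 an effective length of 143 and 135 bases, against 344 in the first, and its TPM there was 9.35 and 9.17. The TPM of Scn4a-201 was close between the tables, at 5.47 and 6.27 in the second, so the gap in the TPM of the gene was carried by Scn4a-202. The coding channel transcript stood at 5.45 and 6.13 TPM, and at that level Scn4a remained above Scn7a in each library.

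Scn7a, at chr2:66673425-66784914 on the minus strand (ENSMUSG00000034810.7), encodes the sodium-sensing channel-like protein that responds to extracellular sodium and is not gated by voltage in the usual way. It had 803 expected counts and 3.59 TPM in replicate 1, and 751 counts and 3.38 TPM in replicate 2. The second table gave 3.70 and 3.59 TPM. The libraries were closer for Scn7a than for any other member above 1 TPM. Its 1 annotated transcript has a coding length of 5043 bases. Scn7a held 25.8% and 22.9% of the alpha TPM, and 36.8% and 33.1% with protein-coding transcripts only.

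Scn3a (chr2:65457118-65567627, minus strand; ENSMUSG00000057182.14), a channel of embryonic and early postnatal neurons, had 70 expected counts and 0.43 TPM in replicate 1, and 42.4 counts and 0.36 TPM in replicate 2. Counts in the second table were 79 and 47.6, but its TPM was 0.290 and 0.353, so counts and TPM ordered the libraries differently there. Scn3a-202, with a coding length of 5841 bases, took 64.1 and 33.1 counts in the first table. Scn3a-203, an annotated fragment of 365 bases, took only 1.35 and 1.66 counts but 38.6% and 56.9% of the TPM of the gene. In the second table Scn3a-203 held 0% and 51.9%. Scn3a-201 took 4.56 and 7.61 counts in the first table. With fewer than 2 expected counts in each library, Scn3a-203 was not detectable above the 3 counts that a count of 0 allows. It nevertheless supplied 0.16 of the 0.43 TPM of the gene in replicate 1 and 0.20 of the 0.36 TPM in replicate 2.

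Scn10a (chr9:119608456-119719322, minus strand; ENSMUSG00000034533.10), the tetrodotoxin-resistant channel of sensory neurons, had 53 expected counts and 0.27 TPM in replicate 1, and 67 counts and 0.34 TPM in replicate 2. The second table gave 0.286 and 0.367 TPM. Only Scn10a-201 and Scn10a-202, both full-length coding transcripts, received counts. Scn10a-201 took 73.3% and 58.5% of the TPM of the gene, and Scn10a-202 took 26.7% and 41.5%. In the second table Scn10a-202 led in replicate 2 with 54.7%, so which of them led was not settled. The tables give no positions of reads within a transcript.

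Scn1a (chr2:66270778-66440840, minus strand; ENSMUSG00000064329.13), a channel of inhibitory neurons of the brain, had 2 expected counts in replicate 1 and 1 in replicate 2. The 95% exact Poisson intervals of those counts were 0.242 to 7.22 and 0.0253 to 5.57. In the second table it had 2.11 and 5 counts, the latter mostly on Scn1a-205, a transcript with a retained intron. Scn1a was therefore not detectable above the 3 counts that a count of 0 allows in the gene table of either library. These intervals cover counting error only.

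Among the 3 beta genes analysed here, Scn4b stood far above the others. It lies at chr9:45138395-45154152 on the plus strand (ENSMUSG00000046480.6), has 1 annotated transcript and a coding length of 684 bases. Its product is the beta subunit linked to resurgent sodium current, in which channels reopen as the membrane repolarises. It had 1816 expected counts and 12.05 TPM in replicate 1, and 3078 counts and 20.56 TPM in replicate 2. The second table gave 12.8 and 21.9 TPM. Replicate 2 was the higher library in both tables, and Scn4b ranked 4466 among nuclear protein-coding genes by TPM in replicate 1 and 2607 in replicate 2.

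Scn4b held 93.6% of the TPM summed over the 3 beta genes in replicate 1 and 95.8% in replicate 2. Of the TPM of all 8 genes it held 45.0% and 56.7% (50.9% ± 8.29, SD, n = 2). Over the 5 alpha and 3 beta genes analysed here, alpha TPM summed to 13.89 and 14.77, and beta TPM to 12.88 and 21.47. The alpha sum thus exceeded the beta sum in replicate 1 and lay below it in replicate 2. With protein-coding transcripts only, the alpha sum was 9.75 and 10.2 against 12.8 and 21.4 for beta, so the beta sum was then larger in each library. Other alpha and beta genes are not in these sums, so they do not compare the whole classes.

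Scn2b (chr9:45117782-45130070, plus strand; ENSMUSG00000070304.12) ends 8324 bases before Scn4b starts on the same strand. It had 67 expected counts and 0.51 TPM in replicate 1, and 81 counts and 0.62 TPM in replicate 2. The second table gave 0.535 and 0.617 TPM. Scn4b TPM was 23.6 times that of its neighbour in replicate 1 and 33.2 times in replicate 2. The transcripts of Scn2b carry the same coding length, 645 bases, and Scn2b-202 led in each library with 61.8% and 62.3% of TPM in the first table and 100% and 93.4% in the second.

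Scn3b (chr9:40269217-40291618, plus strand; ENSMUSG00000049281.16) had 30 expected counts and 0.32 TPM in replicate 1, and 31 counts and 0.29 TPM in replicate 2. The second table gave 0.515 and 0.482 TPM, above the gene table in each library. Its counts were assigned to different coding transcripts in the libraries. Scn3b-203 took 20.6 counts and Scn3b-206 took 7.76 in replicate 1, where Scn3b-201 had 0. In replicate 2 Scn3b-201 took 30.2 counts, and Scn3b-203 and Scn3b-206 had 0. Scn3b-205, a transcript with no annotated reading frame, held 18.5% and 15.1% of TPM from 1.12 and 0.80 counts. In the second table Scn3b-205 led in replicate 1 with 26.9% and Scn3b-201 led in replicate 2 with 49.9%. At about 30 counts per library, the transcript make-up of Scn3b was not resolved.

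**Figure D3:**
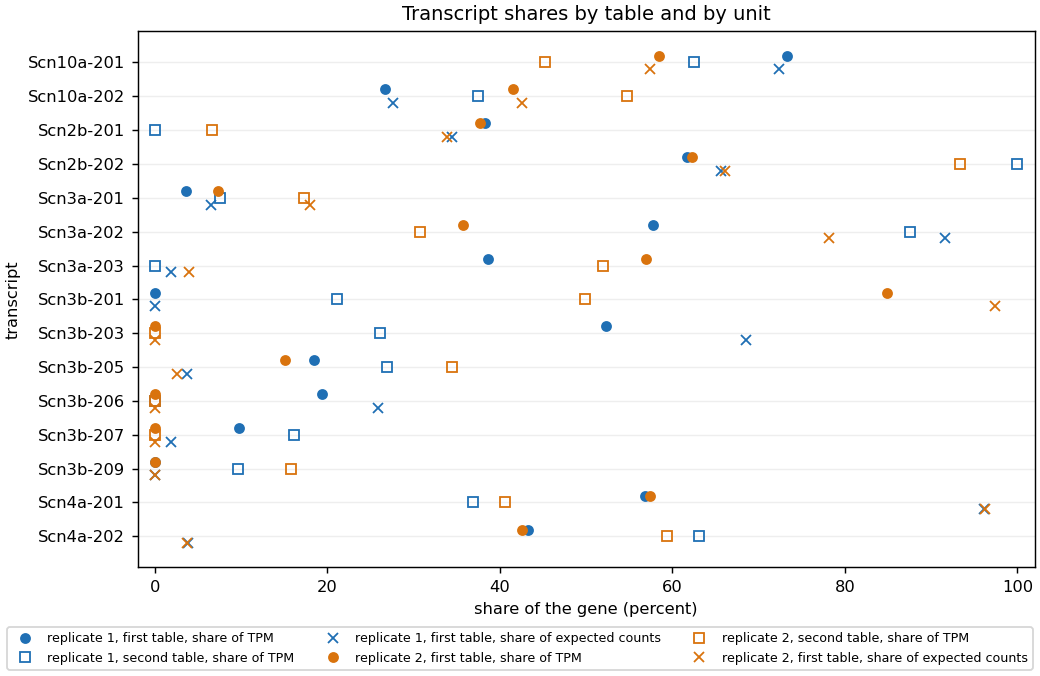
Share of each transcript in its gene (percent) for transcripts with at least 10% of TPM in a library or table, by first table TPM (circles), second table TPM (squares) and first table expected counts (crosses), in replicate 1 (blue) and replicate 2 (orange). In the first table Scn4a-202 and Scn3a-203 hold at least 38.6% of TPM and under 4% of counts in each library, in the second table Scn3a-203 holds 0% in replicate 1, and Scn3b-201 and Scn3b-203 lie far apart between libraries.

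The 8 genes have 32 annotated transcripts, 23 of them protein-coding, and 17 had at least 1 expected count in a library. Another 10 were at 0 in both libraries and both tables, among them Scn3b-202, Scn3b-204 and Scn10a-204. The same transcript led by TPM in each library for 3 of the 6 genes with several transcripts, Scn4a, Scn2b and Scn10a, in the first table. Short transcripts gained most from the length scaling of TPM, as the shares of Scn4a-202, Scn3a-203 and Scn3b-205 show beside their counts.

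Exact matches with other genes made up a small part of the annotated sequence of these genes. Only the same strand was searched, and the counts that fell on shared stretches were not measured. Of the 100-base stretches in the annotated transcripts, 2.22% of those of Scn3a and 0.876% of those of Scn1a also occurred in transcripts of 3 other genes. None occurred elsewhere for the other 6 members. Genes on the opposite strand overlap Scn1a, Scn3a, Scn2b and Scn3b (Gm13630, Gm13595, Gm10684 and Gm47266), and each had 0 counts in both libraries.

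To compare the libraries, the rounded counts of each gene were put through a two-sided exact binomial test conditional on their sum. P-values were adjusted by Benjamini-Hochberg over the 12189 genes that reached a mean TPM of 1. The test compares libraries, not conditions, and covers counting error only. It called 3245 genes (26.6% of those tested), 10.7% of tested genes were called higher in replicate 2, and 1.67% differed by 2-fold or more. Of the members, 3 passed the filter and 5 did not, and 2 of the 3, Scn4b and Scn4a, were called, both higher in replicate 2. None of the 3 differed by 2-fold.

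Scn4b was 1.86-fold higher in replicate 2, a log2 ratio of 0.90 with a 95% interval of 0.81 to 0.98 and an adjusted p of 9.17e-100 in the exact test. A ratio at least this high was found for 88 tested genes, or 0.722%. For Scn4a the log2 ratio was 0.30 (0.18 to 0.41), with an adjusted p of 5.02e-06 in the exact test, and 7.47% of tested genes had at least this ratio. By transcript, it was 0.30 (0.18 to 0.42) for Scn4a-201 and 0.25 (-0.36 to 0.89) for Scn4a-202. Scn7a did not pass, with a log2 ratio of 0.04 (-0.11 to 0.19) and an adjusted p of 0.762 in the exact test. The median over all tested genes was -0.02.

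**Figure D4:**
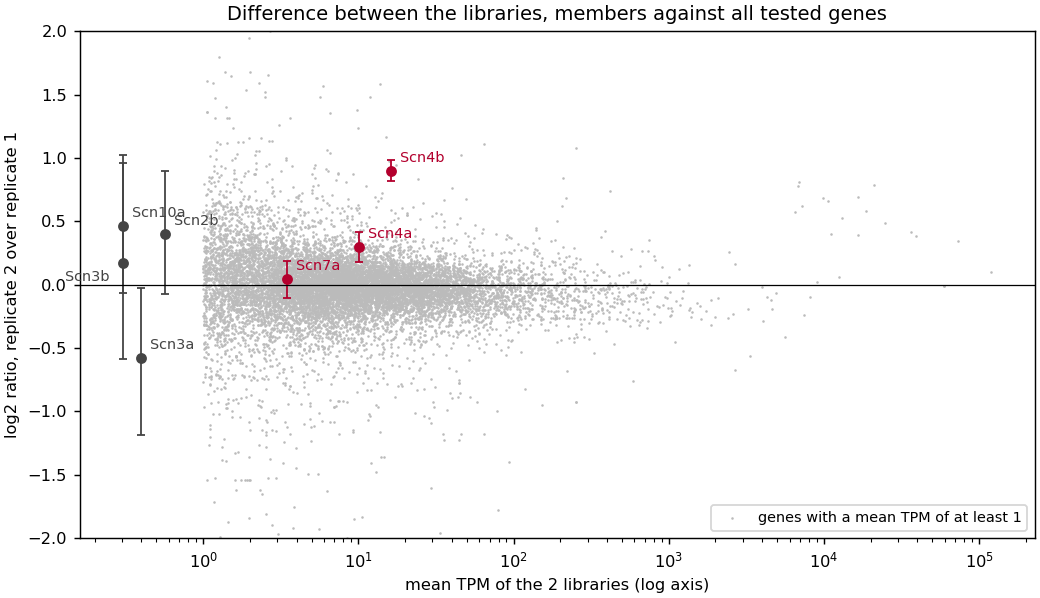
Each gene's mean TPM (x, log axis) and its log2 ratio between the libraries (y, positive where replicate 2 is higher) for tested genes (grey), the 3 tested members (red) and 4 members under the filter (dark grey), with 95% exact intervals of the members. Scn4b at 0.90 lies at the upper edge of genes of like level, Scn4a at 0.30 lies nearer the centre, and 52 tested genes beyond 2 either way and Scn1a are not drawn.

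The direction of most calls depended on the scaling of the libraries. Of the genes called, 40.1% were higher in replicate 2 with TMM scaling, 16.8% with total counts and 74.4% with the spike-ins. Scn4b and Scn4a were called higher in replicate 2 under each of these. Without the filter on TPM, the log2 ratios were -0.58 for Scn3a, 0.46 for Scn10a, 0.40 for Scn2b and 0.17 for Scn3b, and none passed, the lowest adjusted p in the exact test being 0.186 for Scn3a. The interval for Scn3a was -1.19 to -0.03, so a change larger than 2-fold between these libraries lies within it.

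Markers of other cell types also differed between the libraries. Beside this and each later list stand the shares over all tested genes, 26.6% called and 10.7% called higher in replicate 2. With only genes at a mean TPM of at least 5 tested, 35.3% were called. Of the 7 atrial muscle markers tested, 6 were called lower in replicate 2 and none higher, with a median log2 ratio of -0.44, and the TPM summed over the 8 listed genes was 1396 in replicate 1 and 829 in replicate 2. Nppa, Myl4 and Myl7 led that list. Of the 7 white adipocyte markers tested, 6 were called lower and 1 higher, with a median log2 ratio of -2.02 and sums of 105 and 58.3 over 8 genes. Plin4, Car3 and Cfd led it. Plin4 was the 1 called higher, with a log2 ratio of 0.07 from counts under TMM scaling. Its TPM, 47.7 and 45.9, was slightly lower in replicate 2, so its direction depended on the measure. Car3 was at 22.4 and 5.05 TPM and Cfd at 20.0 and 2.63. Of the 7 macrophage markers tested, 5 were called lower and none higher, with a median of -0.28 and sums of 133 and 97.5, and Lyz2, C1qa and C1qb led. The sums of these lists were lower in replicate 2, but so were those of most lists. Ventricular muscle summed to 41791 and 34962 TPM, fibroblast to 520 and 435, and endothelium to 406 and 386. Pericyte and smooth muscle summed to 315 and 282. Of the 14 lists, only neuron (6.39 and 6.42) and skeletal muscle (174 and 241) had higher sums in replicate 2. Scn4b and Scn4a were higher in replicate 2. The part of the listed cell types in the differences of Scn4b and Scn4a was not tested.

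The lists of ventricular muscle (3 called higher and 7 lower of 10, median log2 ratio -0.09), fibroblast (3 and 4 of 8, -0.05), endothelium (3 and 2 of 8, 0.05) and pericyte and smooth muscle (1 and 1 of 8, 0.03) had medians within 0.1 of 0. Their leading genes were Myl2, Myh6 and Actc1, then Gsn, Dcn and Col1a2, then Fabp4, Cdh5 and Pecam1, and Rgs5, Abcc9 and Acta2. Of the 6 platelet markers, led by Pf4, Ppbp and Itga2b, 3 were tested and none was called, with a median of -0.42.

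Skeletal muscle is the best-known site of Scn4a. Of 12 skeletal muscle markers only Acta1, the skeletal alpha-actin that heart muscle also makes, reached 1 TPM in both libraries, at 170 and 239 TPM, and it was called higher in replicate 2 with a log2 ratio of 0.62. The other 11 summed to 3.14 TPM in replicate 1 and 1.84 in replicate 2. Mylpf led them at 1.51 and 0.67 TPM, but the second table gave it 0.603 and 0.656, so the tables did not order the libraries alike. Tnni2 was at 0.72 and 0.48 TPM, and Myh2, Myh4 and Myog were at 0 in both libraries of the gene table. The second table gave Myh4 0.0712 and 0.0352 TPM and Myh2 0.00964 and 0.0230. Myh1, chosen for mention after its value was seen, was at 0.01 and 0 TPM in the gene table and 0.358 and 0.178 in the second. The part of skeletal muscle in the level of Scn4a and in its difference between the libraries was not tested.

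Most nerve and glial markers were low. Of 16 neuron markers, 2 reached 1 TPM in both libraries, Uchl1 (3.34 and 2.91 TPM) and Stmn2 (1.85 and 2.30). Dbh, an enzyme of sympathetic neurons, followed at 0.70 and 0.61, and Chat and Slc18a3 of cholinergic neurons were at 0 in both libraries of the gene table. The neuron list summed to 6.39 and 6.42 TPM, and neither of its 2 tested genes was called. Of 14 Schwann cell and glia markers, 5 reached 1 TPM, led by Pmp22 (15.05 and 13.22 TPM), Erbb3 (2.57 and 2.51) and Mbp (1.82 and 1.79). Pmp22 thus made up most of the list sums of 25.7 and 24.1, and 1 of the 5 tested was called. The conduction system list had 7 of 12 genes at 1 TPM or more, led by Irx3, Gja5 and Tbx3, with sums of 34.4 and 32.3 and 1 of 7 called in each direction. The part of nerves and conduction tissue in the levels of Scn10a, Scn3a, Scn7a and Scn3b was not tested.

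The other channels of the cardiac action potential gave a scale for these levels. Scn4b lay below 8 of 18 such genes by mean TPM and above 10, Scn4a lay below 10, and Scn7a below 15. The place of Scn4a is that of its gene total, with a mean of 10.1 TPM. Its coding transcript Scn4a-201 alone had a lower mean, 5.79 TPM. Those above Scn4b were Cacna1c, the pore of the L-type calcium channel, at 79.4 ± 2.00 TPM (SD, n = 2), and its partners Cacna2d1 at 34.7 ± 0.764 and Cacnb2 at 29.6 ± 4.53. The potassium channel genes there were Kcnip2, a subunit of the transient outward channel, at 63.0 ± 11.0, Kcnj11 of the ATP-sensitive channel at 47.1 ± 2.09, Kcnj3 and Kcnj5 of the acetylcholine-gated channel at 23.5 ± 0.608 and 19.3 ± 0.672, and Kcnh2 of the rapid delayed rectifier at 19.1 ± 2.95. Among the lowest were Kcnd3 at 3.74 ± 0.445, the pacemaker channel Hcn4 at 2.62 ± 0.177 and Kcne1 at 1.96 ± 1.27. Scn2b, Scn3a, Scn10a and Scn3b each lay below 17 of the 18 genes of this list.

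**Figure D5:**
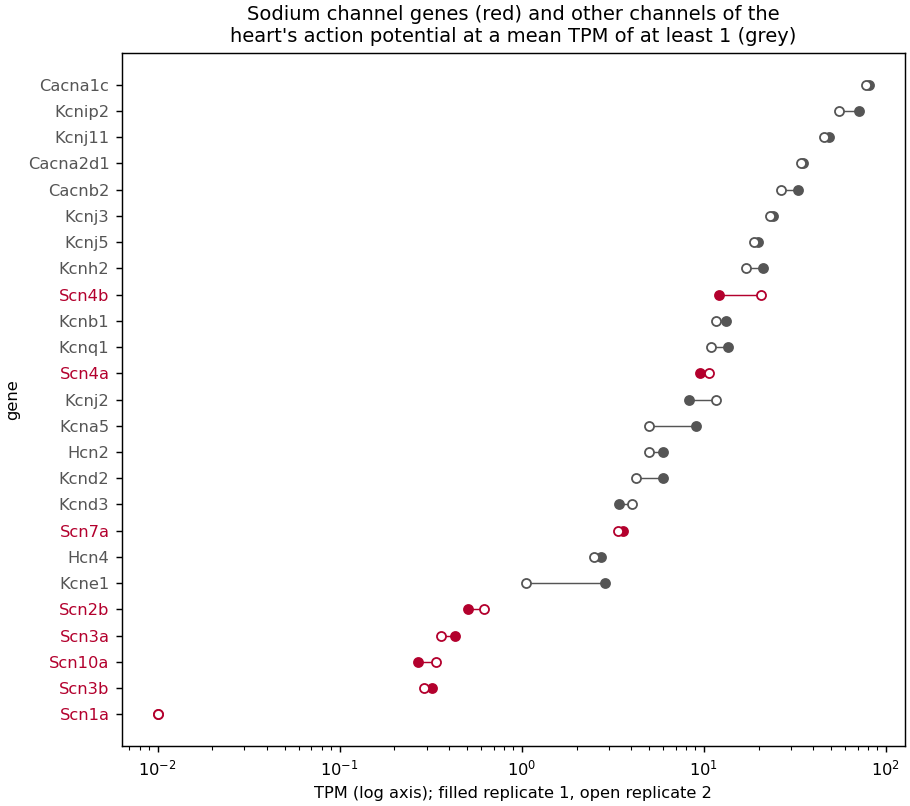
TPM (log axis) of the 8 sodium channel genes (red) and the 17 other channel genes of the cardiac action potential with a mean TPM of at least 1 (grey), ordered by mean, with filled circles for replicate 1 and open circles for replicate 2. Scn4b shows its higher open circle (20.56 against 12.05 TPM), while Kcne1 shows the reverse (1.06 against 2.86).

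Among those 18 channel genes 17 were tested, with 4 called higher and 5 lower in replicate 2 and a median log2 ratio of -0.03. Kcne1, a regulatory subunit of the slow delayed rectifier, was the only one with a 2-fold difference, with a log2 ratio of -1.36. No channel gene of the list had a ratio as high as Scn4b. Kcnj2 of the inward rectifier was the only one above Scn4a, with a log2 ratio of 0.63, and was chosen for mention after its value was seen.

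Genes whose products bind, anchor, modify or control sodium channels were mostly well above the channel genes. Of 30 such partner genes, 27 reached 1 TPM in both libraries and 18 had a higher mean TPM than Scn4b. Among the highest were Gja1, the main gap junction protein, at 170 ± 19.2 TPM (SD, n = 2), the ubiquitin ligase Nedd4 at 131 ± 11.8, the anchoring protein Ank2 at 112 ± 18.5 and the membrane protein Slmap at 96.9 ± 4.33. The calmodulin genes Calm3 and Calm2, whose product binds the tail of the alpha subunit, were at 72.7 ± 11.2 and 60.0 ± 2.16, and the kinase gene Camk2d at 54.9 ± 0.778. Lowest were the intracellular growth factor homologues Fgf11 at 1.13 ± 0.127 and Fgf14 at 0.630 ± 0.0566, and the neuronal adhesion genes Nfasc at 0.10 ± 0.0566 and Cntn1 at 0.01 in each library. Of the 27 partners tested, 4 were called higher and 8 lower in replicate 2, with a median log2 ratio of -0.05 and none at 2-fold. None had a ratio as high as that of Scn4a or Scn4b.

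RefSeq start windows, 250 bases before to 50 after the start on GRCm38.p6, were matched for 6 of the 8 genes, Scn1a, Scn4a, Scn7a, Scn10a, Scn2b and Scn4b. The adjacent genes Scn4b and Scn2b had unlike windows. That of Scn4b held 26 CG dinucleotides and 66.3% G and C, and 16.8% of all 27025 windows held at least as many CG. It runs from 45138374 to 45138673 on chr9, and Scn4b-201 starts at 45138395, so most of the window lies after that start. The Scn2b window runs from 45117626 to 45117925, and Scn2b-202 starts inside it at 45117782. The Scn2b window held 2 CG and 38.3% G and C, and 85.4% of windows held at least as many CG. Medians over all windows were 7 and 52.7%. The windows of Scn4a, Scn7a, Scn1a and Scn10a held 4, 3, 5 and 11. The letters TATAAA, searched on both strands, were in none of the 6 windows and in 14.2% of all windows.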

How the data were processed

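The authors deposited, for each library, a gene table and a matching transcript table of expected counts and TPM, and another transcript table of estimated counts and TPM. The first pair came from reads aligned to transcripts, the other table directly from reads with an index, and all used mm10 and GENCODE M21, per the list deposited with the files. The deposited TPM bounds, a separate measure whose level is not given in the sources used here, are given only in the closing section. Aligners and quantification tools are not given in the sources used here. Effective lengths in the first transcript table were 99 bases shorter than the transcripts.

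Spike-ins, phiX and entries named only by number (0.5% of counts in replicate 1 and 0.444% in replicate 2) stayed out of library sizes and tests. Rounded expected counts entered the exact test, library sizes were scaled with TMM in edgeR 4.0.16 (R 4.3.3), and log2 ratios used a prior count of 2. A gene was called at an adjusted p of at most 0.05. With 1 library on a side no dispersion could be estimated, so no quasi-likelihood test was run. Transcript shares were computed from counts over effective length, since the deposited TPM has few decimals. Intervals of counts and of ratios are exact, at 95%, and cover counting error only. Intervals of TPM were scaled from the count of the whole gene. They therefore leave out the counting error in the split between transcripts, as with Scn4a-202 and Scn3a-203. The test was checked on simulated Poisson counts with no variation between libraries beyond counting. That check therefore does not show how the test behaves where libraries vary more than counting.

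Alternatives were DESeq2 1.42.0 size factors, total-count and spike-in scaling, other filters and prior count, the second table, coding transcripts, a rescaled TPM and leaving out a library. The members and the 14 gene lists were chosen with earlier results of these data known. Text names all members, the 8 highest and 4 lowest genes of the partner and channel lists with any 2-fold difference, up to 3 leading genes of each cell type list with those at 0, and transcripts with at least 10% of TPM in a library or table. Genes of like pattern were not ranked, since any pair correlates perfectly over 2 libraries. A few items that this rule would name are left unreported.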

Additional observations from a re-analysis of the deposited data

How the results depend on the processing

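With TPM rescaled to nuclear protein-coding genes, 5 members had a mean TPM of at least 1 in place of 3. Scn2b was added at 1.48 and Scn3a, narrowly, at 1.02. The place of Scn3a rests in part on Scn3a-203, which held 38.6% and 56.9% of its TPM from 1.35 and 1.66 counts. The Scn4b share of the TPM of all members moved from 50.9% to 59.2% with protein-coding transcripts only, and ran from 45.0% to 56.7% when either library was left out. The log2 ratio of Scn7a turned from 0.040 to -0.037 with total-count scaling and was not called under any alternative. Leaving out a library left 3 members above 1 TPM. The number of members called was 2 under all 7 alternatives run, with log2 ratios of 0.82 to 0.99 for Scn4b and 0.22 to 0.39 for Scn4a. The share of tested genes called moved from 26.6% to 13.2% of 23968 genes without a filter on TPM. Mean TPM of Scn4a was 15.1 in the second table against 10.1, with the difference in Scn4a-202. No paired analysis was possible because the libraries form 1 group. Scn2b, Scn3a, Scn10a, Scn3b and Scn1a had at most 81 counts in a library, so their transcript shares rest on few reads.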

Other observations

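The deposited bounds on TPM, of which the level is not given in the sources used here, did not always hold the deposited TPM. For Scn3b they ran from 0.384 to 1.23 in replicate 1 and from 0.394 to 1.17 in replicate 2, above its TPM of 0.32 and 0.29. For Scn1a they ran from 0.0285 to 0.138 and from 0.0255 to 0.136, above its TPM of 0.01 in each library. For Scn4a-202, the short transcript before the start of the channel transcript, they ran from 2.96 to 5.37 and from 3.34 to 5.86, around its TPM of 4.15 and 4.55. For Scn4a-201 they ran from 5.02 to 5.65 and from 5.67 to 6.35, around 5.45 and 6.13. The bounds of the transcripts thus overlapped in replicate 1 and in replicate 2. The cause of the bounds above TPM was not tested.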
